A study of Mus musculus with 63 samples.

Results

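The genes described here are 24 mouse genes from a list of epileptic encephalopathy genes. Their human counterparts are mutated in epilepsies, many of them severe childhood forms that come with impaired development. Chd2, which encodes a chromatin remodeller and is itself such a gene, was left out of the list because its own level was altered by the design of the study. All 24 were found as single entries among the 24990 gene entries of each RNA table. They fall into 8 kinds of protein: 3 sodium channels (Scn1a, Scn2a, listed as Scn2a1, and Scn8a), 5 potassium channels (Kcnq3, Kcna2, Kcnt1, Kcnc1 and Kcnma1), 2 calcium channels (Cacna1a and Cacna1e), 3 NMDA receptor subunits (Grin1, Grin2a and Grin2b), 2 transporters (Slc2a1 for glucose and Slc6a8 for creatine), 4 proteins of membrane traffic and signalling (Dnm1, Iqsec2, Gnao1 and Tbc1d24), 2 adhesion or secreted proteins (Pcdh19 and Lgi1) and 3 others (Eef1a2, Depdc5 and Wwox).

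Voltage-gated sodium channels start and carry the action potential, potassium channels end it and set how readily a neuron fires again, and calcium channels couple it to transmitter release. NMDA receptors are glutamate-gated channels built from the obligatory subunit GRIN1 and a GRIN2 subunit, and the GRIN2 subunit used changes as the brain matures. Mutations in these genes alter how neurons fire or signal, and brain is therefore described first.

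The study deleted the promoter and first exon of Chaserr, a long noncoding RNA transcribed upstream of Chd2 on the same strand, to ask what Chaserr does to Chd2 and to the genes that depend on it. RNA was sequenced in 47 libraries of 17 groups. Heterozygous (Chaserr+/-, labelled Het) and wild-type (WT) material came from adult brain, E9.5 embryos and E13.5 embryos, with 3 libraries for each genotype and tissue. The labels give the adult brains no age in weeks, and 2 of the 3 brain libraries of each genotype (replicates 1 and 2) were made with the SENSE kit while replicate 3 was made with the TruSeq kit. All embryo libraries were TruSeq. Mouse embryonic fibroblasts (mEFs) are cultured connective tissue cells of the embryo, isolated in the study from E13.5 embryos. They were Chaserr+/- (3 libraries), Chaserr-/- (labelled KO, 3), Chd2m/m (2) or Chaserr-/- Chd2m/m (labelled DKO, 3). Chd2m/m means homozygous for a small deletion in the Chd2 coding sequence. The labels give E13.5 for the Chd2m/m and DKO sets and their WT, and no day for the other mEFs. Each mEF genotype had its own 3 WT libraries, and all mEFs were sequenced with the SENSE kit. By the labels, Chaserr+/- and Chaserr-/- mEFs each shared a pregnancy with their WT, and Chd2m/m mEFs a Chd2+/m cross. DKO mEFs are labelled as from a Chd2+/m cross, but their WT as from a Chaserr+/- Chd2+/m cross. The last 6 libraries were of RNA immunoprecipitation (RIP) from cells labelled Neuro2a, a mouse neuroblastoma line, as 2 CHD2 antibody, 2 control IgG and 2 input libraries, made from total RNA with the RiboCop kit that removes ribosomal RNA. The 2 Chaserr deletion lines of the study were used interchangeably, and the labels do not say which line a library came from.

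Library totals ranged from 7621335 to 33192002 estimated counts. Levels are given as TPM, a transcript abundance scaled to the library and to transcript length that can be compared between genes. Changes are log2 fold changes with a standard error (SE), fitted by edgeR, and p-values were adjusted over all genes tested by the Benjamini-Hochberg method. A gene was called changed at an adjusted p under 0.05. In brain Chaserr was at 30.0, 33.1 and 36.0 TPM in WT and 15.1, 23.5 and 14.1 TPM in Chaserr+/-, and Chd2 was at 8.05, 8.09 and 11.9 TPM in WT and 13.6, 15.2 and 27.7 TPM in Chaserr+/-. The genotypes did not overlap for either gene. The labels do not say that the libraries of a group came from separate animals, so the p-values measure the spread between these libraries, which may be technical.

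The brain libraries did not all hold the same parts of the brain. Pcp2, a Purkinje cell gene, was at 0.91, 471 and 81.8 TPM in WT replicates 1 to 3 and at 232, 225 and 0.26 TPM in the Chaserr+/- replicates, and Gabra6, a cerebellar granule cell gene, was at 0, 101 and 14.1 TPM and at 69.2, 70.3 and 0.11 TPM. WT replicate 1 and Chaserr+/- replicate 3 thus had almost none of the RNA of either gene. The summed level of the 6 cerebellum markers ran from 157 to 998 TPM in WT and from 161 to 651 TPM in Chaserr+/-. Summed over 7 oligodendrocyte markers, the level was 8538, 9562 and 13951 TPM in WT and 8589, 6523 and 5407 TPM in Chaserr+/-, and summed over 8 neuron markers it was 3996 to 5069 TPM in WT and 4180 to 4280 TPM in Chaserr+/-. In bulk tissue, fewer cells of a type and less RNA per cell cannot be told apart.

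The epilepsy genes were well expressed in adult brain. Mean WT levels over the 3 libraries ran from 11.3 TPM for Pcdh19 to 1202 TPM for Eef1a2, the neuronal and muscle form of translation elongation factor 1 alpha. Dnm1, the dynamin that pinches off synaptic vesicles, was at 789.9, 785 and 537 TPM in WT and at 912, 876 and 606 TPM in Chaserr+/-. Gnao1, the main G protein alpha subunit of brain, was at 487, 472 and 338 TPM in WT and at 459, 409 and 388 TPM in Chaserr+/-. These 3 genes stood above the rest of the list in every brain library, and for Gnao1 the genotypes overlapped.

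The channels formed a middle range. Scn1a, the sodium channel of inhibitory interneurons, was at 33.7, 34.0 and 32.9 TPM in WT and at 34.9, 45.4 and 23.1 TPM in Chaserr+/-. Scn2a, prominent in excitatory neurons, was at 70.6, 70.9 and 58.1 TPM in WT and at 67.3, 72.6 and 62.6 TPM in Chaserr+/-, and Scn8a, concentrated at the axon initial segment, was at 64.7, 63.7 and 39.2 TPM in WT and at 70.1, 70.9 and 47.0 TPM in Chaserr+/-. The genotypes overlapped for all 3 sodium channels, and in WT Scn1a lay below Scn2a and Scn8a in every library. Mean WT levels of the potassium channels ran from 24.1 TPM for Kcnq3, a subunit of the M-current channel, to 86.0 TPM for Kcnc1, the fast-spiking channel Kv3.1. Kcna2 (51.3 ± 9.78 TPM, SD, n = 3), Kcnma1 (49.9 ± 16.7) and Kcnt1 (46.2 ± 10.2) had mean WT levels that differed by less than their SD.

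The single libraries of the potassium channels did not all order the kits alike. Kcnq3 was at 28.7, 24.03 and 19.5 TPM in WT and at 30.6, 25.5 and 26.5 TPM in Chaserr+/-, so that its Chaserr+/- TruSeq library lay above a SENSE library. Kcnc1 was at 85.5 and 108 TPM in the WT SENSE libraries and at 64.2 TPM in the WT TruSeq library, with 85.3, 84.7 and 48.5 TPM in the Chaserr+/- replicates. Kcnma1, the BK channel opened by calcium and voltage, was at 62.9, 55.9 and 31.0 TPM in WT and at 58.2, 54.0 and 32.4 TPM in Chaserr+/-. The third value, from the TruSeq library, was the lowest of each genotype for Kcnc1 and Kcnma1. Cacna1a, the P/Q-type calcium channel, was at 61.4, 67.3 and 28.1 TPM in WT and at 71.0, 72.9 and 37.8 TPM in Chaserr+/-, and it had a mean WT level of 52.3 ± 21.1 TPM, and Cacna1e, the R-type channel, of 33.1 ± 12.5 TPM.

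Among the NMDA receptor subunits, the obligatory Grin1 had the highest level, at 228, 198 and 173 TPM in WT and 262, 234 and 246 TPM in Chaserr+/-. Grin2a was at 39.9, 31.9 and 10.8 TPM in WT and at 38.9, 32.8 and 12.2 TPM in Chaserr+/-, and Grin2b was at 44.7, 34.9 and 9.13 TPM in WT and at 38.6, 30.8 and 12.4 TPM in Chaserr+/-. For Grin1 every Chaserr+/- library lay above every WT library, while both Grin2 subunits overlapped between the genotypes and were lowest in the 2 TruSeq libraries. Slc2a1, the glucose transporter of the blood-brain barrier, was at 122, 136 and 63.4 TPM in WT and at 145, 155 and 48.6 TPM in Chaserr+/-, again lowest in the TruSeq libraries.

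The remaining genes spanned the lower and middle range in WT brain. Slc6a8, the creatine transporter, had a mean of 61.8 ± 7.86 TPM (SD, n = 3), and Lgi1, a secreted protein of the synapse, one of 103 ± 20.4 TPM. Tbc1d24, a regulator of vesicle traffic, lay at 25.9 ± 3.82 TPM, Wwox, an oxidoreductase, at 16.5 ± 0.75 TPM, and Depdc5, part of the brake on mTORC1, at 16.1 ± 1.97 TPM. Wwox and Depdc5 differed by less than the SD of Depdc5. Pcdh19, a protocadherin, was lowest at 11.3 ± 1.96 TPM.

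**Figure D1:**
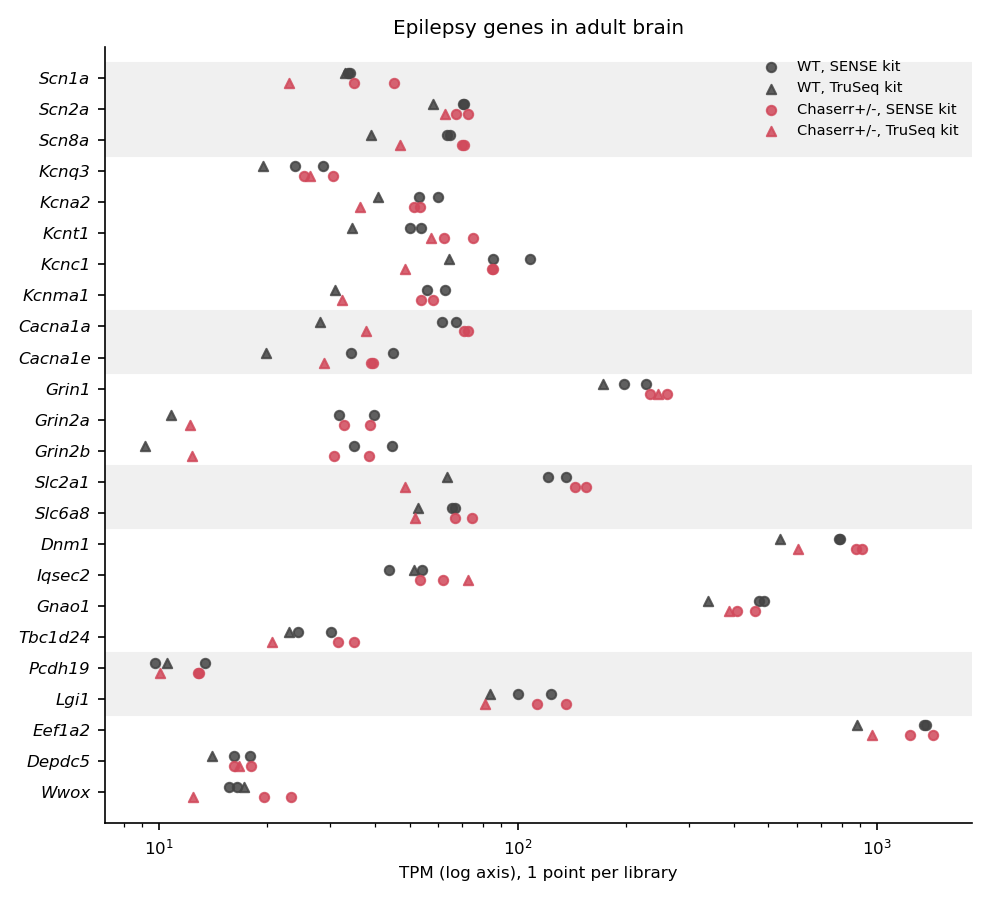
Levels of the 24 epilepsy genes in the 6 adult brain libraries, in TPM on a log axis, with 1 point per library (grey: WT, red: Chaserr+/-, circles: SENSE kit, triangles: TruSeq kit, shading: alternate kinds of protein). Eef1a2, Dnm1 and Gnao1 lie farthest right, and the triangles of Grin2a and Grin2b, between 9.13 and 12.4 TPM, lie well left of their circles.

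None of the 24 genes was called changed in Chaserr+/- brain. Brain libraries were compared in pairs by replicate number, which also pairs the kits. Of 14878 genes tested, 0 were called by edgeR (0.0%), and 1957 had an unadjusted p under 0.05 (13.2%). Chd2 itself, which did not overlap between the genotypes, was not called either (log2 fold change 0.95, SE 0.13, adjusted p = 0.309), so a count of 0 does not show that levels were alike. DESeq2 on the same pairs called 99 genes, 1 of them on the list, and leaving out 1 library gave between 0 genes and 98 (98 without Chaserr+/- replicate 1, 76 without WT replicate 1), with 0 epilepsy genes each time. The members with an unadjusted p under 0.05 were 3, Kcnt1, Grin1 and Iqsec2. All 3 were higher in Chaserr+/-, as were 6.12% of all genes tested, and 0 members were lower, where 7.04% of all genes were.

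Kcnt1, a sodium-activated potassium channel, was at 50.3, 53.7 and 34.6 TPM in WT and at 62.3, 75.1 and 57.5 TPM in Chaserr+/-. All Chaserr+/- libraries lay above all WT libraries, and the log2 ratio was 0.32, 0.45 and 0.69 in pairs 1 to 3. The fitted log2 fold change was 0.49 (SE 0.11, 95% interval 0.23 to 0.76), a 1.41-fold higher level, with an adjusted p of 0.309. DESeq2 gave this gene an adjusted p of 0.0417, the only epilepsy gene it called in brain, and over all alternatives the adjusted p ran from 0.0417 to 1.0, the latter without the replicate block. In the 4 libraries with cerebellar genes its log2 fold change was 0.67, but kit and genotype were not balanced there. Those Chaserr+/- libraries were all SENSE, while the WT libraries were of both kits. In a fit with genotype and kit as terms, Kcnt1 was lower in TruSeq than in SENSE brains (-0.58 on the log2 scale, SE 0.12). Kcnt1 (gene ID 227632) lies on chromosome 2 at 25719315 to 25773793 of mm9, on the plus strand.

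Grin1 had a fitted log2 fold change of 0.30 (SE 0.11, 95% interval 0.049 to 0.55, adjusted p = 0.336), and its pairs were higher in Chaserr+/- in 3 of 3. Iqsec2, a guanine exchange factor of the postsynaptic density encoded on the X chromosome, was at 54.2, 43.8 and 51.6 TPM in WT and at 53.4, 62.0 and 72.6 TPM in Chaserr+/-. Its genotypes overlapped and its log2 fold change was 0.32 (SE 0.13, adjusted p = 0.348). Only Kcnt1 and Grin1 had genotypes that did not overlap in TPM, 2 higher of 24 where 4.46% of all genes tested were, and 0 members lay lower without overlap where 4.07% of genes did.

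Over the whole list, the median log2 fold change in brain was 0.057, beside -0.0017 over all genes tested. It was above 0 for 18 members and below 0 for 6, and it ranged from -0.15 for Kcnc1 to 0.49 for Kcnt1. All 3 pairs were higher in Chaserr+/- for 7 members (Scn8a, Kcnq3, Kcnt1, Cacna1a, Grin1, Dnm1 and Iqsec2), 2 of 3 for 10, 1 of 3 for 7 and 0 of 3 for 0. Signs and pairs were counted for the list only, so no share over all genes stands beside these counts. The 95% intervals were wide: that of Scn1a ran from -0.45 to 0.38, and that of Wwox from -0.39 to 0.58. With only the 4 libraries that held cerebellar genes, 0 epilepsy genes and 0 genes in all were called. There the 2 Chaserr+/- libraries are SENSE and 1 of the 2 WT libraries is TruSeq, so kit and genotype were not balanced. The part of the cerebellar and oligodendrocyte content in the brain values was not tested.

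**Figure D2:**
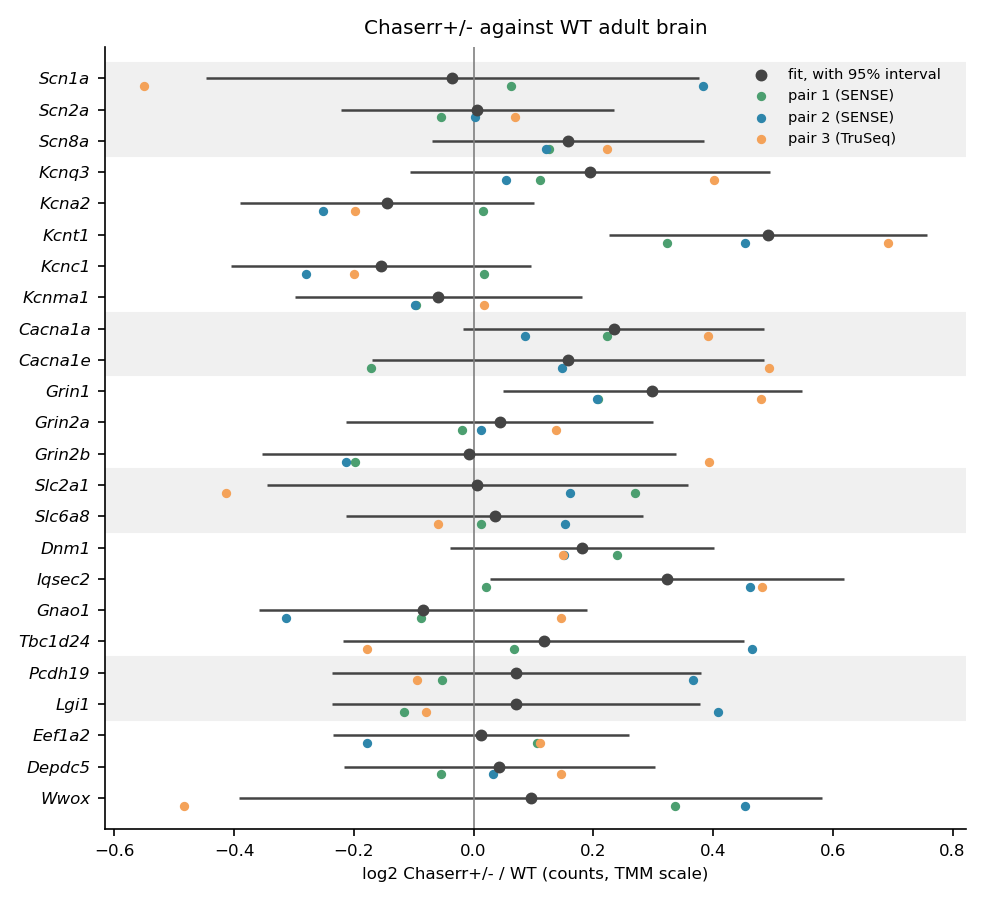
Log2 ratio of Chaserr+/- to WT brain for each epilepsy gene on the TMM scale of counts (black: fitted value with its 95% interval, coloured points: the 3 pairs). The interval of Kcnt1 runs from 0.23 to 0.76, with all 3 pairs right of 0, and those of most other genes cross 0.

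Most of the epilepsy genes differed between the library kits. In a fit with genotype and kit as terms, 20 of 24 epilepsy genes were lower in the TruSeq than in the SENSE brains and 0 were higher, where 24.3% of the 14878 genes tested were called lower and 24.2% higher. Grin2b differed most, by -1.95 on the log2 scale (SE 0.19), followed by Grin2a (-1.80), Slc2a1 (-1.48) and Cacna1a (-1.22). The median over the list was -0.62, beside -0.0052 over all genes. Grin1 (-0.31, adjusted p = 0.0508), Wwox (-0.50, adjusted p = 0.0845), Iqsec2 (0.095) and Depdc5 (-0.037) were not called. Both TruSeq libraries lay below all 4 SENSE libraries in TPM for 17 members, where 21.0% of all genes did, and above them for 0, where 37.8% of all genes did. The TruSeq brains are also those of replicate 3, so the kit and the animals cannot be told apart. Each genotype has 1 TruSeq library. This comparison was added after the brain levels had been seen.

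**Figure D3:**
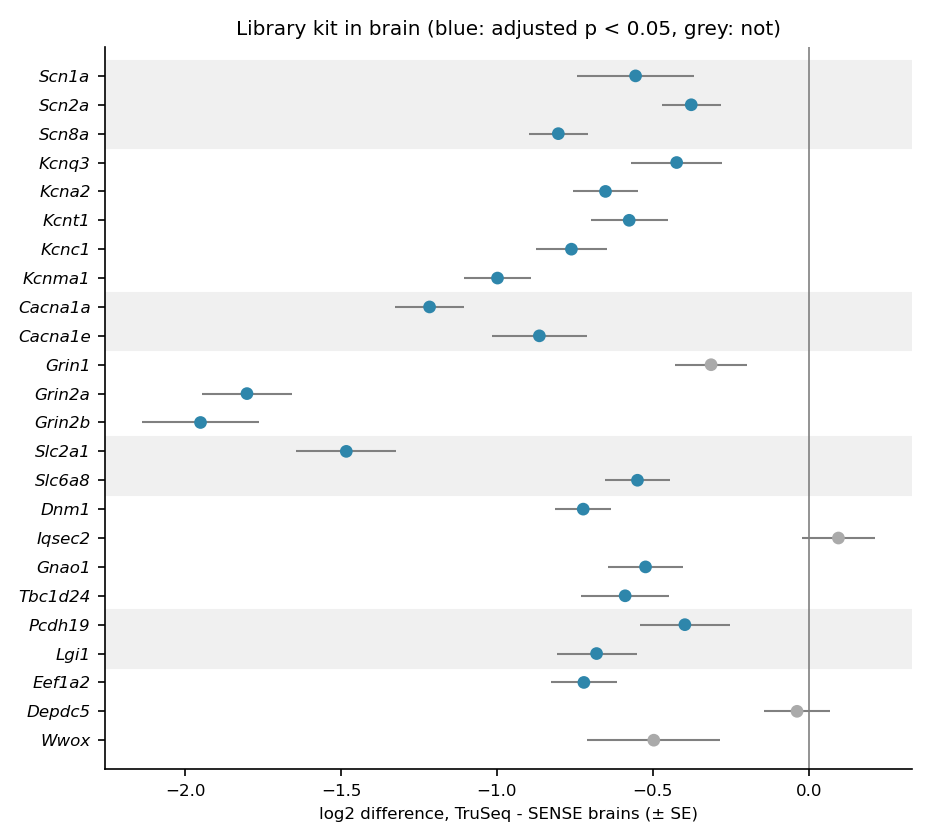
Log2 difference of the TruSeq brains from the SENSE brains for each epilepsy gene, with genotype as a term (points: fitted value, bars: ± SE, blue: adjusted p under 0.05, grey: not). Values run from -1.95 for Grin2b to 0.095 for Iqsec2, and all 20 blue points lie left of 0.

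In Chaserr+/- embryos no epilepsy gene was called changed at either stage. At E9.5, 22 of the 24 could be tested, since Grin1 (3 to 11 counts a library) and Grin2b (0 to 4 counts) were too low. Of 14489 genes tested, 0 were called (0.0%), 447 had an unadjusted p under 0.05 (3.09%), and DESeq2 called 5, with 0 epilepsy genes. Chd2 was at 25.8, 24.7 and 24.8 TPM in WT and at 37.9, 42.9 and 36.5 TPM in Chaserr+/-. Kcnq3, at 0.78, 1.14 and 0.91 TPM in WT and 0.59, 0.64 and 0.46 TPM in Chaserr+/-, had a log2 fold change of -0.71 (SE 0.25, adjusted p = 1.0), and Kcnc1 one of -0.93 (SE 0.34, adjusted p = 1.0). These were the 2 members with an unadjusted p under 0.05, both at levels near 1 TPM or below. The list's median was -0.097 beside -0.0018 over all genes, with 5 members above 0 and 17 below. Without overlap in TPM, 3 members lay lower (Kcnq3, Kcnma1 and Gnao1), where 6.14% of genes did, and 1 higher (Cacna1a), where 2.68% did.

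At E13.5, 2 of 15934 genes tested were called (0.0126%) and 0 of the 24 epilepsy genes. An unadjusted p under 0.05 was found for 3 members and for 6.34% of all genes. Kcnt1 was at 2.05, 1.85 and 1.85 TPM in WT and at 1.40, 1.60 and 1.47 TPM in Chaserr+/-, so that here every Chaserr+/- library lay below every WT library (log2 fold change -0.29, SE 0.11, adjusted p = 0.731). Dnm1 was at 47.4, 43.8 and 48.7 TPM in WT and at 34.9, 43.0 and 40.3 TPM in Chaserr+/- (-0.19, SE 0.052, adjusted p = 0.731). Grin2a, at 0.35, 0.19 and 0.35 TPM in WT and 0.38, 0.45 and 0.71 TPM in Chaserr+/-, lay higher without overlap (0.82, SE 0.33, adjusted p = 0.731). Genes lower without overlap made up 8.43% of all genes tested and genes higher 1.34%. The list's median was -0.018 beside 0.0036 over all genes.

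For Kcnt1 the direction in brain and at E13.5 was opposite. The difference of the 2 effects, tested as an interaction in 1 fit of the 12 libraries, was 0.80 on the log2 scale (SE 0.12, adjusted p = 0.0681), and Dnm1 had one of 0.39 (SE 0.098, adjusted p = 0.108). Of 16839 genes tested in this way, 11 were called (0.0653%), and 0 of the 24 epilepsy genes. An unadjusted p under 0.05 was found for 3097 genes in this test. Between E13.5 and E9.5 the effect of the genotype differed for 2 genes in all (0.0124%) and 0 members, and between brain and E9.5 for 0 genes (2284 at an unadjusted p under 0.05) and 0 members. The interaction tests were added after the data had been seen.

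Most of these genes rose as the WT embryo developed from E9.5 to E13.5. In WT embryos 20 of the 24 rose and 2 fell, where 42.1% of the 15750 genes tested rose and 38.3% fell. The median log2 fold change of the list was 1.84, beside 0.056 over all genes. Grin2b rose from 0, 0.01 and 0.01 TPM (0 to 1 counts) to 1.62, 0.81 and 0.99 TPM, a fitted log2 change of 6.96 that depends on how counts near 0 are treated. Eef1a2 rose from 0.58, 0.78 and 0.71 TPM to 23.7, 15.8 and 18.4 TPM (4.54, SE 0.20), and Grin1 from 0.08, 0.12 and 0.21 TPM to 4.26, 2.81 and 3.64 TPM (4.49, SE 0.29). All 3 sodium channels rose, by 3.79 for Scn2a, 1.73 for Scn1a and 0.56 for Scn8a, as did all 5 potassium channels, by 1.33 for Kcnq3 to 3.33 for Kcnc1, and both calcium channels, by 0.78 for Cacna1a and 3.19 for Cacna1e. The 4 traffic and signalling genes rose by 1.16 for Tbc1d24, 1.35 for Iqsec2, 1.96 for Dnm1 and 2.28 for Gnao1. The adhesion and secreted genes rose by 1.05 for Pcdh19 and 2.12 for Lgi1, the secreted ligand of the synaptic ADAM receptors. All 8 neuron markers rose as well, and their summed level went from 107 to 122 TPM at E9.5 to 1193 to 1448 TPM at E13.5.

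Slc2a1 went the other way. It was at 328, 306 and 386 TPM at E9.5 and at 73.2, 83.5 and 73.2 TPM at E13.5, a fall of 2.40 on the log2 scale (SE 0.086). Depdc5 fell by 0.24 (SE 0.051) on the TMM scale of counts, while its mean level was 18.6 TPM at both stages and its libraries overlapped in TPM. Grin2a, at 0.30, 0.20 and 0.18 TPM at E9.5 and 0.35, 0.19 and 0.35 TPM at E13.5, was not called (0.13, SE 0.35, adjusted p = 0.739), nor was Wwox (0.20, adjusted p = 0.159). The stages overlapped for Grin2a and not for Grin2b.

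Because Eef1a2 and Grin1 rose and Slc2a1 fell with stage, the DNA just before their start sites is shown. The sequences are the 250 bases upstream of the RefSeq start, read 5′ to 3′ on the gene's strand, taken from the RefSeq promoter table of GRCm38.p6 and placed on mm9 (NCBIM37) by an exact match that was found once. Capitals mark the GC box GGGCGG or its reverse complement and the E box CACGTG.
Grin1, chr2:25174708-25174957, minus strand: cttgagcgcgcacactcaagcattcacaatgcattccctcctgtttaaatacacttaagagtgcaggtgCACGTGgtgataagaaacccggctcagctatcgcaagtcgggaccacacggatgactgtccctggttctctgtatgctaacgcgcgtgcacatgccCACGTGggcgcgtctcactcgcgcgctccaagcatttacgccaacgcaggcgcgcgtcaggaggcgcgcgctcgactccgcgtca
Eef1a2, chr2:180891721-180891970, minus strand: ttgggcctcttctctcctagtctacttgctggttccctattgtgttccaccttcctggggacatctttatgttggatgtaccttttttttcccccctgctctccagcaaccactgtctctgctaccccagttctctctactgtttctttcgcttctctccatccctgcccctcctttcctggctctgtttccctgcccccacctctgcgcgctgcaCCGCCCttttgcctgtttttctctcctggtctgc
Slc2a1, chr4:118781100-118781349, plus strand: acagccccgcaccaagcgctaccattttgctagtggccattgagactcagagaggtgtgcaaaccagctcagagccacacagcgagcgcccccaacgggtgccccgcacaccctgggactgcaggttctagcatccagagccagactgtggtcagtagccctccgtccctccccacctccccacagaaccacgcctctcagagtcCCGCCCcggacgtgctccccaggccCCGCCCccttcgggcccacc

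The Grin1 sequence held 27 CpG dinucleotides and 2 E boxes, that of Slc2a1 13 CpG and 2 GC boxes, and that of Eef1a2 4 CpG and 1 GC box, where the median over 32851 promoters was 6 CpG. The table had a promoter for 17 of the 24 genes. These 17 genes had 21 promoters in the table. A GC box was found on either strand in 9 of the 21 promoters (32.7% of all promoters) and the E box in 2, of Grin1 and Tbc1d24 (6.02% of all promoters). These counts describe the letters in the window and not binding.

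Across WT tissues, 21 of the 24 genes had their highest mean TPM in adult brain. The exceptions were Slc2a1 and Depdc5, highest in E9.5 embryos (for Depdc5 level with E13.5 within the SD), and Pcdh19, a cell adhesion protein, highest in mEFs. With FPKM in place of TPM the number was 21, and with TMM-scaled counts per kilobase it was 20. The share of all genes that were highest in brain was not counted, so these numbers describe the list alone. Slc2a1 had mean levels of 339.9 ± 41.5 TPM at E9.5, 107 ± 38.5 TPM in brain and 134 ± 12.6 TPM in mEFs from the Het pregnancy. Pcdh19 was at 38.9, 41.6 and 37.1 TPM in those mEFs and at 11.3 ± 1.96 TPM in WT brain. Tissues differed in kit, so no test was made between embryo, brain and mEFs.

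**Figure D4:**
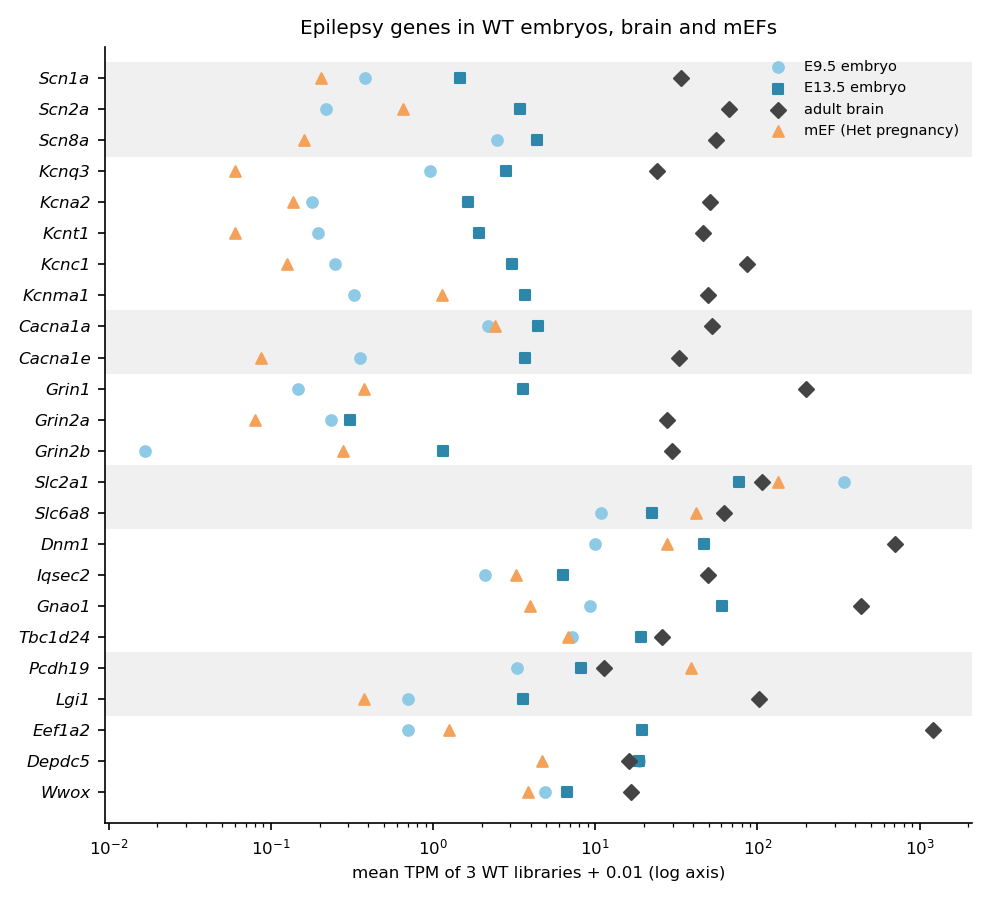
Mean TPM of 3 WT libraries, on a log axis after adding 0.01, for each epilepsy gene in E9.5 embryos, E13.5 embryos, adult brain and mEFs of the Het pregnancy. Brain (dark diamonds) lies farthest right for 21 of 24 genes, and Slc2a1, Depdc5 and Pcdh19 are the exceptions.

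In mEFs 19 to 24 of the genes had enough counts to be tested, and 0 of those tested were called changed in any of the 4 mutant genotypes. In Chaserr+/- mEFs 0 of 19 tested members were called (0.166% of 13275 genes), in Chaserr-/- mEFs 0 of 20 (0.111% of 13574), in Chd2m/m mEFs 0 of 24 (0.0145% of 13769) and in Chaserr-/- Chd2m/m mEFs 0 of 22 (0.0924% of 14062). At an unadjusted p under 0.05 the numbers of members were 3 (8.34% of all genes), 3 (33.9%), 2 (4.48%) and 1 (9.91%), in the same order. In Chaserr-/- mEFs Iqsec2 was at 5.25, 4.57 and 5.51 TPM in WT and at 2.88, 3.77 and 2.44 TPM in the mutant (log2 fold change -0.78, SE 0.21, adjusted p = 0.0508). Dnm1 was at 40.6, 47.5 and 49.6 TPM in WT and at 27.0, 38.4 and 35.2 TPM in the mutant (-0.51, SE 0.16, adjusted p = 0.0690). They were among 4 members that lay lower without overlap, where 16.3% of all genes did. DESeq2 called both, and so did edgeR without KO replicate 2 (2821 genes in all, against 15 with all libraries), so this comparison stood close to the threshold. In Chaserr+/- mEFs Grin1 was at 0.46, 0.37 and 0.26 TPM in WT and at 0.87, 0.68 and 0.86 TPM in Chaserr+/-, with an adjusted p of 0.243. It was among 5 of the 19 tested members that lay higher there without overlap, where 8.89% of all genes did. Lower without overlap was 1 member, where 4.69% of all genes were.

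In the RIP libraries the question was whether CHD2 antibody recovered the RNA of these genes beyond IgG and input. The counts used here leave out intronic reads. The study counted RIP reads over whole gene bodies and proposes that CHD2 mostly binds nascent RNA. Recovery of unspliced RNA was therefore not measured here. The label Neuro2a was first checked against markers. The input libraries held 379 and 382 TPM of Phox2a and 248 and 265 TPM of Hand2, transcription factors of sympathetic neuroblasts, and in the brain libraries Phox2a was at 0 to 0.6 TPM and Hand2 at 0. They also held genes of adult brain: Mbp of myelin at 515 and 404 TPM, Ttr of choroid plexus at 1956 and 1376 TPM, Camk2a of excitatory neurons at 709.96 and 524 TPM, and Gfap of astrocytes at 31.2 and 21.3 TPM. The libraries thus carried neuroblastoma and adult brain markers together, which goes against the label of 1 cell line. The adult brain genes were higher still in the IgG libraries (Mbp 2509 and 1909 TPM, Ttr 9643 and 6374 TPM) and in between in the CHD2 libraries (Mbp 1293 and 1149 TPM, Ttr 5024 and 4156 TPM). IgG replicate 1 stood apart with Phox2a at 15.4 TPM and Hand2 at 21.4 TPM, where IgG replicate 2 had 168 and 131 TPM.

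The epilepsy genes followed the same order as the adult brain markers. Of the 24 genes, 18 lay highest in both IgG libraries, in between in both CHD2 libraries and lowest in both input libraries, where 18.2% of the 14926 genes tested did, as did 14 of 14 oligodendrocyte and astrocyte markers. The other 6 were Scn2a, Scn8a, Cacna1a, Tbc1d24, Depdc5 and Wwox. Wwox was at 9.40 and 13.1 TPM in CHD2, 12.4 and 16.7 TPM in IgG and 9.88 and 10.3 TPM in input, and Depdc5 at 25.4 and 44.9 TPM in CHD2, 18.7 and 22.7 TPM in IgG and 19.1 and 27.1 TPM in input. In both genes at least 1 pair of groups overlapped. This order is one of TPM. On the TMM scale of the tests, CHD2 against input was below 0 for 6 members, by -0.63 for Wwox to -0.056 for Gnao1, and 4 of them, Slc2a1, Slc6a8, Eef1a2 and Gnao1, were among the 18. None of the 6 was called. The median ratio of IgG to input TPM over the list was 3.99 in replicate 1 and 3.46 in replicate 2, and that of CHD2 to input was 2.54 and 2.73. For the 14 glial markers the medians were 4.86 and 4.59 for IgG and 2.55 and 2.84 for CHD2, and for the 6 neuroblastoma markers 0.261 and 0.496 for IgG. The part of brain RNA in the RIP values of the epilepsy genes was not tested.

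Against input, the IgG control itself was enriched for these genes. Of 24 genes, 17 were called higher in IgG than in input and 0 lower, where 12.9% of all genes were called higher and 17.8% lower, with a median log2 fold change of 1.41 beside -0.24 over all genes. All 3 sodium channels, all 5 potassium channels, both calcium channels and all 3 NMDA receptor subunits were among them. Dnm1 was at 734 and 576 TPM in IgG and at 177 and 158 TPM in input, and Iqsec2 at 136 and 105 TPM in IgG and at 34.6 and 30.6 TPM in input. For both genes the IgG libraries lay above all input libraries. Scaling by DESeq2's size factors moved the median over all genes to -0.086 and that of the list to 1.55. The call rested on few libraries: 9 members were called without IgG replicate 1, 20 without IgG replicate 2, 10 without input replicate 1 and 0 without input replicate 2 (47 genes in all).

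CHD2 libraries against IgG showed 1 epilepsy gene called, and it was lower. Grin2a was at 13.2 and 13.6 TPM in the CHD2 libraries, 32.1 and 27.5 TPM in IgG and 7.2 and 4.93 TPM in input (CHD2 against IgG -1.41, SE 0.35, adjusted p = 0.0395). Of all genes, 10.0% were called higher and 0.744% lower. The list's median was -0.89 beside -0.031 over all genes, 21 members lay below 0, and 18 were lower without overlap in TPM, where 27.6% of all genes were. Of the rest, 3 members lay higher in both CHD2 libraries than in both IgG libraries, where 39.7% of genes did, and none of them was called: Scn8a (0.11), Tbc1d24 (0.56), a RAB GTPase regulator of synaptic vesicles, and Depdc5 (0.40). Grin2a was not called without either CHD2 library or without IgG replicate 1, when 0 members were called, and without IgG replicate 2 the number of members was 15 (6016 genes in all). With the replicate number as a block 12 members were called and with DESeq2 8. Chd2 RNA itself was at 21.0 and 20.6 TPM in CHD2, 3.99 and 4.98 TPM in IgG and 3.34 and 5.43 TPM in input (CHD2 against IgG 1.97, SE 0.29, adjusted p = 0.01001).

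Against input, 3 epilepsy genes were called higher in the CHD2 libraries and 0 lower, where 6.26% of all genes were higher and 10.7% lower. Scn8a was at 57.2 and 75.5 TPM in CHD2, 54.1 and 49.0 TPM in IgG and 13.6 and 15.5 TPM in input (CHD2 against input 1.41, SE 0.30, adjusted p = 0.0179). Tbc1d24 was at 43.0 and 35.3 TPM in CHD2, 25.5 and 19.4 TPM in IgG and 8.51 and 11.2 TPM in input (1.22, SE 0.31, adjusted p = 0.0322). Scn2a was at 16.5 and 18.1 TPM in CHD2, 19.9 and 16.7 TPM in IgG and 4.67 and 4.86 TPM in input (1.08, SE 0.29, adjusted p = 0.0379). For Scn2a the CHD2 and IgG libraries overlapped, and both lay above input. The list's median against input was 0.62 beside 0.074 over all genes, or 0.72 beside 0.19 with DESeq2's size factors. With the replicate number as a block 6 members were called (4067 genes in all). Without any 1 of the 4 CHD2 and input libraries, 0 members were called, with 0 genes called in all except 1049 without input replicate 2. The fitted values are smaller than the TPM ratios, as for Grin1, with a CHD2 to input TPM ratio of 1.96 in replicate 1 and a fitted log2 value of 0.19. TMM rescales each library by its composition, and TPM does not. The 3 RIP comparisons share libraries and are not independent of each other.

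**Figure D5:**
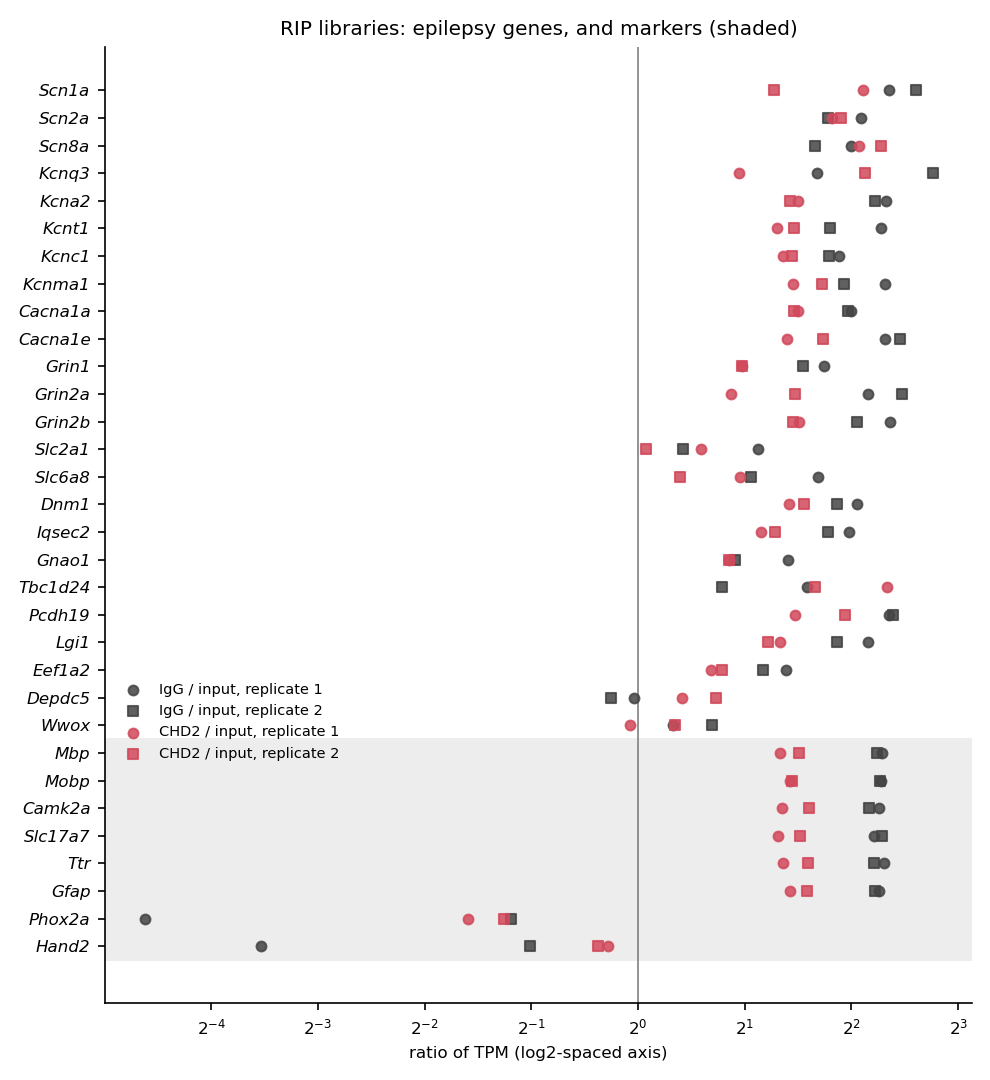
Ratio of TPM to the input library of the same number, on a log2-spaced axis, for the 24 epilepsy genes and 8 markers of adult brain and neuroblastoma (shaded; grey: IgG, red: CHD2, circles: replicate 1, squares: replicate 2). Most epilepsy genes lie right of 1 with grey right of red, as do Mbp, Mobp, Camk2a, Slc17a7, Ttr and Gfap, while Phox2a and Hand2 lie left of 1. Tbc1d24, Scn8a and Depdc5 have red right of grey.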

How the data were processed

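The deposited tables hold, for each of 47 RNA libraries, RSEM expected counts, TPM and FPKM per gene, which the authors made with RSEM on RefSeq transcripts after editing the last exon of Chaserr (build mm9, RSEM version not given in the sources used here). The deposited expected counts are estimated counts without scaling between libraries, and the deposited TPM and FPKM were scaled by the authors within each library. RIP was counted by RSEM on transcripts, so intronic reads do not enter. Expected counts were rounded and tested with edgeR 4.0.16 in R 4.3.3 (filterByExpr, TMM, quasi-likelihood), with DESeq2 1.42.0 as an alternative. Gene names came from RefSeq (GRCm38.p6) by gene ID (23449 entries) or accession (1169). Entries without a symbol held 0.118 to 10.3% of counts and were left out. Brain was fitted with the replicate number as a block, since same-numbered brains shared a kit. The deviations of same-numbered brains from their group means, on log2 CPM after adding 2, correlated by 0.555, 0.585 and 0.798. Deviations of SENSE brains of unlike number correlated by 0.666 (Chaserr+/- 1 with WT 2) and 0.404 (Chaserr+/- 2 with WT 1). The correlations thus do not set the number apart from the kit. All other fits had no block. The 3 RIP groups shared 1 fit. All 24 genes are named; of other lists, at most 3 called genes a comparison by size of change, and of marker lists the genes with the highest level. Some genes of these other lists are not reported here. The members, lists and tests were chosen with earlier results of these data known. Pair ratios used 0.5 CPM as an offset. Scripts were tested on simulated data with 200 changed genes. Open chromatin peaks were not used here. The alternatives are given in the closing section.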

Additional observations from a re-analysis of the deposited data

Results flagged for a closer look

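Kcnt1 was picked out because its genotypes did not overlap in either tissue and lay in opposite directions, higher in Chaserr+/- brain and lower in Chaserr+/- E13.5 embryos. The difference of the genotype effects, brain minus E13.5, was 0.80 on the log2 scale (SE 0.12, edgeR's quasi-likelihood test, adjusted p = 0.0681), so it did not pass the threshold. The test used the same libraries in which the pattern was seen, so it gives no separate support. Kcnt1 was at 34.6 to 53.7 TPM in WT brain and at 1.85 to 2.05 TPM in WT E13.5 embryos. The embryo libraries were all TruSeq, and within brain the TruSeq pair had the largest ratio, 0.69, beside 0.32 and 0.45 in the SENSE pairs. The part of the kit in this difference was not tested.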

How the results depend on the processing

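The count of epilepsy genes called in brain was 0 with edgeR under every alternative tried and 1 with DESeq2 (Kcnt1). Without the replicate block it was 0, so the pairing changed no call in brain. In embryos the count was 0 under every alternative, and from E9.5 to E13.5 it stayed at 22 without each library. Over all genes, brain gave 99 genes with DESeq2, 8 without a filter on low counts and 1 with kit as a covariate; E9.5 gave 5 with DESeq2 and 1 without a filter; E13.5 gave 20 with DESeq2, 5 without a filter, 4 with at least 10 counts in every library and 1 with the replicate block. In mEFs the numbers were, for Chaserr+/-, 97 with DESeq2, 67 without a filter and 72 with the block. For Chaserr-/- they were 2585 with DESeq2 (2 epilepsy genes), 1516 without a filter (1) and 1423 with at least 10 counts (1), and no block could be fitted because its WT libraries carry other numbers. Chd2m/m gave 8 with DESeq2, 8 without a filter, 0 with at least 10 counts and 93 with the block, and the double mutant 223 with DESeq2, 103 without a filter and 80 with the block. For CHD2 against IgG, 8 epilepsy genes were called with DESeq2 (3588 genes), 3 without a filter (2553) and 12 with the block (4449). CHD2 against input gave 6 with the block (4067 genes) and 4586 genes with only those groups fitted, and IgG against input 2370 genes with only those groups. The cause of these shifts was not tested. The labels do not say whether same-numbered embryo libraries share a litter. Chaserr+/- mEFs and their WT share a pregnancy by label, whatever their number. For the Chd2m/m mEFs and for RIP, the labels do not say whether the number marks a shared cross or lysate. For the double mutant, the labels name differing crosses for mutant and WT. Deviations of same-numbered libraries correlated by -0.0503 and 0.153 in Chd2m/m mEFs, by -0.1, -0.0992 and 0.225 in the double mutant, and by 0.254, 0.268 and 0.447 in CHD2 against IgG, CHD2 against input and IgG against input.

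Leaving out 1 library at a time gave 0 epilepsy genes and 0 to 98 genes in brain, 0 and 0 to 5 at E9.5, 0 and 1 to 12 at E13.5, and 22 and 12220 to 12459 between the stages. In mEFs the ranges were 0 and 3 to 52 for Chaserr+/-, 0 to 2 and 2 to 2821 for Chaserr-/-, 0 and 0 to 7 for Chd2m/m, and 0 and 3 to 187 for the double mutant. In RIP they were 0 to 15 and 0 to 6016 for CHD2 against IgG, 0 and 0 to 1049 for CHD2 against input, and 0 to 20 and 47 to 7195 for IgG against input. With 2 RIP libraries a group, the lone library left was taken to vary like the other groups. Chaserr between the stages ranged from -0.094 to 0.20 on the log2 scale. Of the values for single genes under the alternatives, 848 kept direction and side of the threshold, 68 lost the call, 51 gained it and 2 turned direction. The fit on libraries with cerebellar genes was chosen after seeing the data. Counts limited the embryo values of Grin1, Grin2a and Grin2b, which had 18 or fewer counts in every E9.5 library.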

Other observations

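Further epilepsy genes and relatives of the channels and receptors were measured in the same comparisons. Of 36 further epilepsy genes, 22 rose and 4 fell from E9.5 to E13.5 in WT embryos, and Scn9a, a sodium channel, rose by 5.28 on the log2 scale (SE 0.16). Over all genes tested 42.1% rose and 38.3% fell. Of 24 channel and receptor relatives, a list that shares genes with the first, 19 rose and 2 fell, and Scn3b, a sodium channel beta subunit, rose by 6.10 (SE 0.15). In Chaserr+/- brain 0 of the 36 and 0 of the 24 were called, with median log2 fold changes of 0.091 and -0.00066. In RIP, 20 of the 36 were higher and 1 lower in IgG than in input, where 12.9% of all genes were higher and 17.8% lower. Against IgG, Alg13, of protein glycosylation, was higher in the CHD2 libraries (1.67, SE 0.44, adjusted p = 0.0474).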
